A study of Mus musculus with 2 samples.

Results

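10 genes that fold and hydroxylate collagen chains inside the cell were followed across cell classes and host genotypes: Serpinh1, P4ha1, P4ha2, P4ha3, P4hb, Plod1, Plod2, Plod3, Ppib and Fkbp10. They were chosen by name for their role in collagen processing, and all 10 were among the 31053 genes listed in both single-cell count matrices. 2 libraries were compared, each made from 2 pooled small tumours of B16F10, a mouse melanoma line grown in C57BL/6 hosts. The WT library came from Atf4 WT/WT hosts and the KO library from Atf4 Δ/Δ hosts, in which tamoxifen-activated Rosa26::CreERT2 had removed the floxed gene. Hosts of both genotypes carried the Cre allele, received tamoxifen and were 11 weeks old. The deletion was host-wide and by the study's account not complete, and the melanoma cells kept their own Atf4, so a difference in a host class cannot be assigned to loss of ATF4 in that class.

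Fibrillar collagen is a triple helix that is built in the endoplasmic reticulum. Prolyl 4-hydroxylases (catalytic subunits P4ha1, P4ha2 and P4ha3 with the shared subunit P4hb, protein disulphide isomerase) add the hydroxyl groups that stabilise the helix, using oxygen, iron and 2-oxoglutarate, and the lysyl hydroxylases Plod1, Plod2 and Plod3 prepare lysines for glycosylation and cross-linking. Serpinh1 (HSP47) binds the folded helix on its way to the Golgi, while Ppib (cyclophilin B) and Fkbp10 (FKBP65) are peptidyl-prolyl isomerases that assist folding and lysine modification. In tumours most fibrillar collagen is laid down by cancer-associated fibroblasts (CAFs), and several of these hydroxylases are known targets of the hypoxia-inducible factors.

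The upstream sequences of 4 members are shown because 3 of them (P4ha1, P4ha2 and Plod1) followed the hypoxia score of single cells below whereas Serpinh1 did not. Each is the 250 bases before the RefSeq transcription start (GRCm38.p6), 5′ to 3′ on the gene's strand. Capitals mark the core of the hypoxia response element, ACGTG or GCGTG, on either strand.
P4ha1 (chr10:59323046-59323295, plus strand): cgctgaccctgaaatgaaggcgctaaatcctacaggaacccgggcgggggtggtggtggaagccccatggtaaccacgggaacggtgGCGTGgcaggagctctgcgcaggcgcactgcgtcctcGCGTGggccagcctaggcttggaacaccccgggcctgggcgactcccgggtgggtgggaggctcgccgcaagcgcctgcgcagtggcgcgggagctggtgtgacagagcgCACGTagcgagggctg
P4ha2 (chr11:54100674-54100923, plus strand): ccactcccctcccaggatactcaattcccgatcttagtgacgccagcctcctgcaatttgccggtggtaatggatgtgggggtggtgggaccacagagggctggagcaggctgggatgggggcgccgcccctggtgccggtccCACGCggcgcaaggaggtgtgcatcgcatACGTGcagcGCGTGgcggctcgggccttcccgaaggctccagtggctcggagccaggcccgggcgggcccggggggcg
Plod1 (chr4:147936777-147937026, minus strand): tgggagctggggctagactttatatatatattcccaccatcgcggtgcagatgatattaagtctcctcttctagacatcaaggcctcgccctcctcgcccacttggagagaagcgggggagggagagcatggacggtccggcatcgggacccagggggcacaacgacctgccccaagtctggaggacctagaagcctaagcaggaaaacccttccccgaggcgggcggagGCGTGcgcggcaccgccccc
Serpinh1 (chr7:99353240-99353489, minus strand): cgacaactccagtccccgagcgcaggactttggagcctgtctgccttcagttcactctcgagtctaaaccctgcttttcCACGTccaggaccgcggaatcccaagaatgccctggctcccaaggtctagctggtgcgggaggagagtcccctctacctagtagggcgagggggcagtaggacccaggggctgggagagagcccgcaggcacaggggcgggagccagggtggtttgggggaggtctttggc
One or more hypoxia cores lay in 7 of the 8 members with a RefSeq promoter, and in 38.6% of 32851 promoters of the same length. P4ha1 and P4ha2 held 3 each, Plod1 and Serpinh1 held 1 each, Plod3 and Ppib held 4 each, P4hb held 2 and P4ha3 none. In the Plod3 window 208 of the 250 bases lay in a GENCODE exon. The P4ha2 window precedes a RefSeq start that lies inside the GENCODE gene, which begins at 54100095. The composite element bound by ATF4 and C/EBP factors (TGATGNAA, either strand) was found in none of the 8, against 3.45% of all promoters, and the ATF6 and XBP1 core (TGACGTG, which contains ACGTG) also in none, against 1.65%. These are matches of letters in 1 window and not binding sites. Plod2 and Fkbp10 were not included.

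The matrices held 38417113 UMIs (unique molecular identifiers, each counting 1 captured RNA molecule) in the WT library and 38290024 in the KO library. After the limits of 200 to 5000 genes and at most 7.5% mitochondrial UMIs, 3861 WT and 3557 KO cells remained, which shared 1 barcode (10 before the limits). Cells were classed by marker genes that include no member and no collagen. CAF-like cells numbered 183 in WT and 208 in KO, melanoma-like cells 1741 and 1784, macrophage-like cells 860 and 687, monocyte-like cells 236 and 134, and endothelial-like cells 72 and 20. Dendritic-like (51 and 9) and T/NK-like cells (33 and 11) were too few for ratios. In CAF-like cells all 13 fibroblast markers were detected in both libraries, with a summed level of 9044 UMIs per 1000000 UMIs of the class (CPM) in WT and 8561 in KO. The melanoma markers summed to 594 and 548 CPM there, the macrophage markers to 120 and 52.5, the endothelial markers to 67.0 and 66.5 and the mural markers to 111 and 161. The monocyte markers summed to 415 and 544 CPM, with 6 and 3 of 7 detected. Of that sum Plac8 was 373 and 460 CPM and Hp 34.2 and 82.8, while Ly6c2 and Ccr2 had 1 and 2 UMIs in WT and 0 in KO, and the part of this RNA in the members' levels was not tested. Atf4 itself was at 258 CPM in WT and 38.5 in KO CAF-like cells (log2 KO/WT −2.75, 95% interval −3.33 to −2.21), and at 227 and 204 CPM in melanoma-like cells.

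Both libraries were labelled as pools of male and female hosts. WT CAF-like, macrophage-like and endothelial-like cells held 0 Y-linked UMIs, however, whereas KO CAF-like cells held 65, so host sex and genotype cannot be told apart in the full comparison. The KO/WT results in CAF-like cells are therefore also given for Xist-positive CAF-like cells, those that held Xist but nothing Y-linked (151 WT, 56 KO). With 1 library per genotype there was no test, and no p-value is given. All intervals are 95% and cover the counting of UMIs only, not the difference between mice, tumours or libraries.

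Most members were most abundant in CAF-like cells. In WT, all 10 were at least 1.5-fold higher in CAF-like than in melanoma-like cells, where 31.9% of 11645 genes were, and in KO all 10 again, against 28.5% of 11797 genes. Levels are compared between cell classes within a gene and not between genes, because a 3′ UMI count depends on the transcript's 3′ end.

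**Figure D1:**
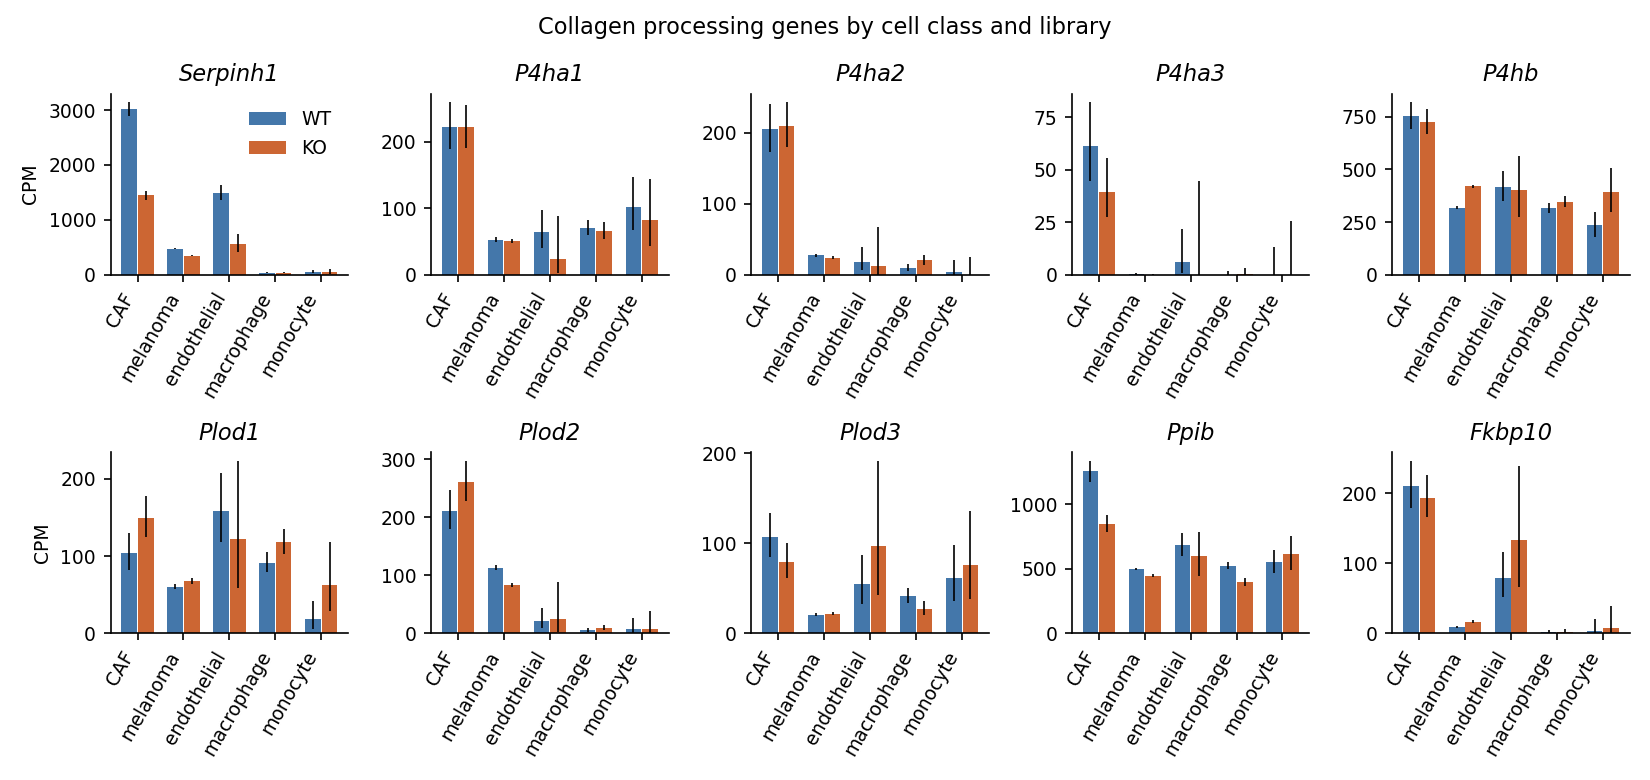
Level of each gene in CPM (y axis, linear from 0, a scale of its own in each panel) by cell class (x axis), for the WT (blue) and KO (orange) libraries. Bars are class sums of 1 library and lines are 95% Poisson intervals. Of the 5 classes plotted, CAF-like cells were highest in both libraries for 8 of the 10 genes, with Plod1 in WT and Plod3 in KO higher in endothelial-like cells.

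Serpinh1 (chr7:99345376-99353239, minus strand; this and the following gene positions are from GENCODE vM21 on GRCm38), the collagen-specific chaperone, stood at 3016 CPM in WT CAF-like cells and 1448 in KO CAF-like cells. In endothelial-like cells, second in order, it was at 1488 CPM in WT and 559 in KO, and in melanoma-like cells at 473 and 343. In macrophage-like cells its 38.4 and 33.7 CPM were close to the 40.5 and 28.6 CPM that free RNA from the other cells would give. Serpinh1 was thus a gene of CAF-like, endothelial-like and melanoma-like cells, with no level above free RNA in macrophage-like cells.

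Among the catalytic prolyl hydroxylase subunits, P4ha3 (chr7:100285520-100319699, plus strand) had the narrowest range. It had 45 UMIs in WT CAF-like cells (61.5 CPM) and 34 in KO (39.7 CPM), but 6 and 0 UMIs in the far deeper melanoma-like sums and 0 and 1 in macrophage-like cells. Its CAF-like level was 204-fold the melanoma-like level in WT (log2 interval 6.44 to 9.19). In KO the ratio was 262-fold (log2 interval 6.36 to 10.38), with 3 UMIs standing in for the count of 0. P4ha2 (chr11:54100095-54131665, plus strand) was at 205 and 210 CPM in WT and KO CAF-like cells and at 27.5 and 23.8 in melanoma-like cells. P4ha1 (chr10:59323296-59373304, plus strand) was the most widespread subunit, at 223 and 222 CPM in CAF-like cells, 101 and 82.8 in monocyte-like, 70.2 and 65.7 in macrophage-like and 53.0 and 50.8 in melanoma-like cells. Macrophage-like levels of P4ha1 were well above the 4.85 and 4.88 CPM estimated for free RNA. P4hb (chr11:120560298-120573253, minus strand), which also serves as a general disulphide isomerase, was found in every class, from 173 CPM (14 UMIs) in WT dendritic-like cells to 754 in WT CAF-like cells. Cells that passed no gate, and so belong to no class, held P4hb at 288 CPM in WT and 786 in KO.

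The lysyl hydroxylases differed in where they were found. Plod2 (chr9:92542223-92608428, plus strand), whose product modifies the telopeptides of fibrillar collagen, was at 212 and 261 CPM in WT and KO CAF-like cells and at 113 and 83.3 in melanoma-like cells. In macrophage-like cells Plod2 was at 5.67 and 8.58 CPM, beside a free-RNA estimate of 7.96 and 6.74. Plod1 (chr4:147909753-147936767, minus strand) was at 104 and 149 CPM in CAF-like, 91.6 and 118 in macrophage-like and 60.1 and 67.6 in melanoma-like cells. In WT it was highest in endothelial-like cells (158 CPM, interval 118 to 208), above CAF-like cells beyond counting error (log2 CAF over endothelial −0.61, −1.14 to −0.07). Plod3 (chr5:136987019-136996648, plus strand), which also carries glycosyltransferase activity, was at 107 and 79.3 CPM in CAF-like cells against 20.7 and 21.8 in melanoma-like cells. In KO its endothelial-like level of 97.3 CPM rested on 8 UMIs and did not differ from CAF-like cells beyond counting error.

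Of the isomerases, Fkbp10 (chr11:100415697-100424824, plus strand) was mainly in CAF-like cells, at 210 CPM in WT and 194 in KO, with 79.1 and 134 in endothelial-like and 8.74 and 16.5 in melanoma-like cells. In KO the CAF-like and endothelial-like levels did not differ beyond counting error, the latter resting on 11 UMIs. Ppib (chr9:66060222-66066623, plus strand) was abundant in every class, from 396 CPM in KO macrophage-like cells to 1253 in WT CAF-like cells. Exons of Ppib, Plod3, Fkbp10 and Plod2 overlap exons of a gene on the opposite strand (Snx22, Znhit1, Nt5c3b and Gm38391), and Plod3 holds Mir702 on its own strand. The study's methods state Cell Ranger with default parameters and do not say how strand was treated. The part of these overlapping genes in the UMIs was not tested.

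Over the 8 class sums with at least 50 cells in each library (CAF, melanoma, macrophage and monocyte in WT and KO), the genes most like P4ha3 among 9869 were Srpx (Pearson r = 0.9998), Mrc2 (0.9992) and Htra1 (0.9992). Those most like Fkbp10 were S100a16 (0.9981), Mxra8 (0.9966) and Pdia5 (0.9935), and those most like Serpinh1 were Bcat1 (0.9947), F3 (0.9930) and Tuba1a (0.9926). For the other members the closest gene had r between 0.9747 and 0.9959. These values describe 8 points from 2 libraries that share free RNA, and carry no test.

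The next comparison asked whether the members differed between the genotypes of the host, first in the CAF-like cells that make most of the collagen. Over all CAF-like cells Serpinh1 was about 2-fold lower in KO, and Ppib was lower by a smaller factor. The hydroxylase subunits P4ha1, P4ha2 and P4hb were at nearly the same summed level in both, but P4ha2 differed between sets of KO cells, as given below. Of the 10 members, 2 were at least 1.5-fold lower in KO (Serpinh1 and P4ha3), beside 16.6% of 7152 genes, and 0 were at least 1.5-fold higher, beside 12.8%. Counting intervals lay below 0 for 2 members (Serpinh1 and Ppib; 12.1% of genes) and above 0 for 2 (Plod1 and Plod2; 9.72% of genes). The median log2 KO/WT over the members was −0.09 and over all genes −0.05. The shares of members called by fold were near those of all genes or below them.

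**Figure D2:**
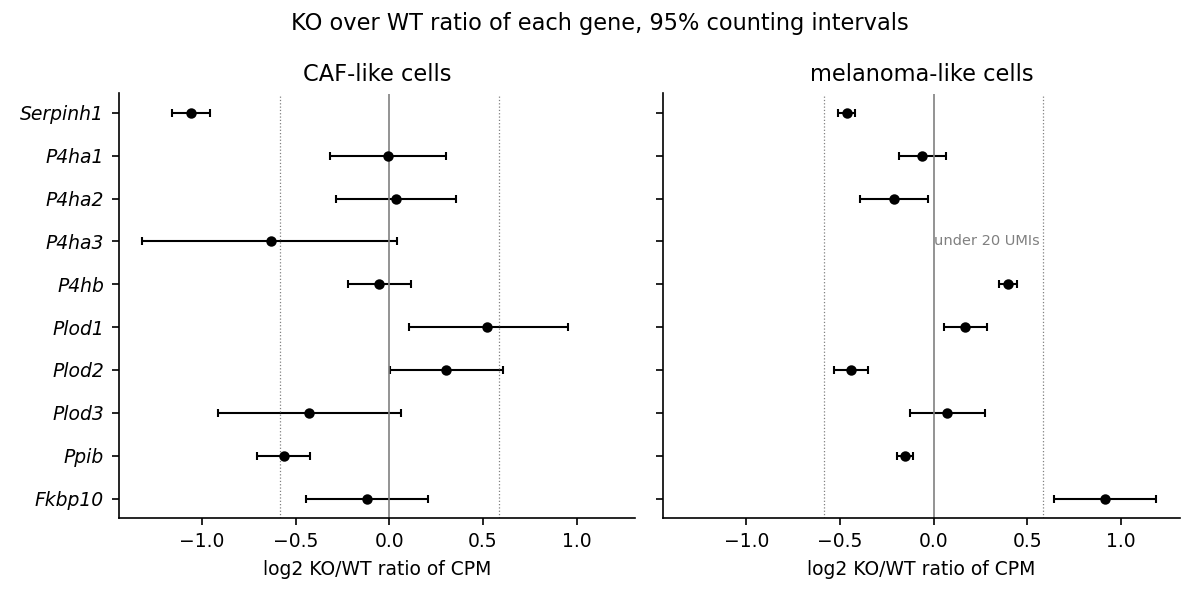
Log2 ratio of the KO to the WT level (x axis) for each gene (y axis) in CAF-like (left) and melanoma-like cells (right), with 95% counting intervals. Dotted lines mark 1.5-fold. Serpinh1 lies at −1.06 in CAF-like and −0.46 in melanoma-like cells, and Fkbp10 lies to the right of 1.5-fold in melanoma-like cells.

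Serpinh1 had 2207 UMIs in WT CAF-like cells (3016 CPM, interval 2891 to 3144) and 1241 in KO (1448 CPM, interval 1368 to 1531), a log2 ratio of −1.06 (−1.16 to −0.96). The difference was spread over the cells. After each cell was thinned to 2000 UMIs, WT CAF-like cells held a median of 6 Serpinh1 UMIs (quartiles 4 and 8, highest 14, 159 cells) and KO cells a median of 2 (quartiles 1 and 4, highest 10, 182 cells). At that depth 97.5% of WT cells (exact binomial interval 93.7 to 99.3%) and 83.5% of KO cells (77.3 to 88.6%) had a Serpinh1 UMI, before thinning 97.8% and 90.9%. Macrophage-like cells, where Serpinh1 was at the free-RNA level, gave 5.26% and 6.86% at the same depth (median depth before thinning 2423 and 2363 UMIs, against 3768 and 3755 in CAF-like cells). Serpinh1 was lower in KO among the Xist-positive cells as well (2987 to 1669 CPM, log2 −0.84, interval −1.02 to −0.67).

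**Figure D3:**
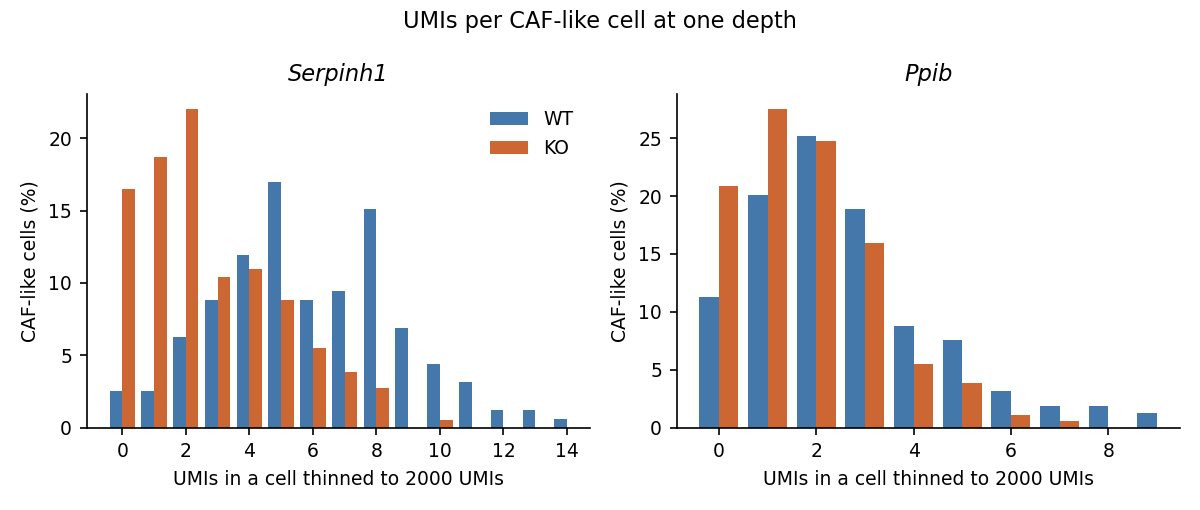
Share of CAF-like cells (y axis, %) by the number of Serpinh1 (left) or Ppib (right) UMIs in the cell (x axis) after thinning each cell to 2000 UMIs, for WT (blue, 159 cells) and KO (orange, 182 cells). For Serpinh1 the WT cells centre on 6 UMIs and the KO cells on 2, whereas for Ppib both medians are 2.

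Ppib had 917 UMIs in WT CAF-like cells (1253 CPM) and 727 in KO (848 CPM), a log2 ratio of −0.56 (−0.71 to −0.42). The median thinned cell held 2 Ppib UMIs in both libraries, with a mean of 2.58 in WT and 1.76 in KO. Among the Xist-positive cells the Ppib levels were 1223 and 1014 CPM, a log2 ratio of −0.27 (−0.50 to −0.04). The other isomerase, Fkbp10, was at 210 CPM (154 UMIs) and 194 CPM (166 UMIs), log2 −0.12 (−0.45 to 0.21). Among the Xist-positive cells its log2 ratio was −0.62 (−1.28 to −0.02).

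Over all CAF-like cells the prolyl hydroxylase subunits P4ha1 (log2 −0.01, interval −0.32 to 0.30), P4ha2 (0.03, −0.29 to 0.36) and P4hb (−0.05, −0.22 to 0.11) had intervals that include 0 and exclude a 1.5-fold difference. Among the Xist-positive cells the ratios were 0.21 (−0.28 to 0.68) for P4ha1, −0.52 (−1.18 to 0.08) for P4ha2 and 0.09 (−0.18 to 0.36) for P4hb. There the P4ha1 and P4ha2 intervals do not exclude a 1.5-fold difference. P4ha3, with 45 and 34 UMIs, was at 61.5 and 39.7 CPM (log2 −0.63, −1.32 to 0.04). That interval includes 0. It lay below 0 with a 15% mitochondrial limit (−0.73, −1.41 to −0.06) and with a stricter gate (−0.77, −1.48 to −0.07). It included 0 with a looser gate (−0.58, −1.27 to 0.10), with TMM factors (−0.59, −1.28 to 0.08) and with collagen genes in the gate (−0.55, −1.21 to 0.11). With at most 1 melanoma marker per cell it included 0 as well (−0.36, −1.47 to 0.77). In thinned cells a P4ha3 UMI was seen in 12.6% of WT and 5.49% of KO CAF-like cells, against 0 of 551 and 1 of 423 macrophage-like cells.

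Among the lysyl hydroxylases, Plod1 was at 104 CPM in WT (76 UMIs) and 149 CPM in KO (128 UMIs), log2 0.52 (0.10 to 0.95). Plod2 was at 212 CPM (155 UMIs) and 261 CPM (224 UMIs), log2 0.30 (0.0012 to 0.61). Plod3 was at 107 CPM (78 UMIs) and 79.3 CPM (68 UMIs), log2 −0.43 (−0.92 to 0.06). The higher Plod2 level was not shared by all KO cells. Y-positive KO cells, those with a Y-linked UMI but without Xist (46 cells), held 393 CPM of Plod2 (97 UMIs). The 56 Xist-positive KO cells held 83.2 CPM (16 UMIs), against 223 CPM (140 UMIs) in Xist-positive WT cells. The ratios to those WT cells were thus 0.82 (0.43 to 1.20) and −1.42 (−2.27 to −0.67). The rest of the 208 KO CAF-like cells fell in neither set, and their level is not given apart.

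**Figure D4:**
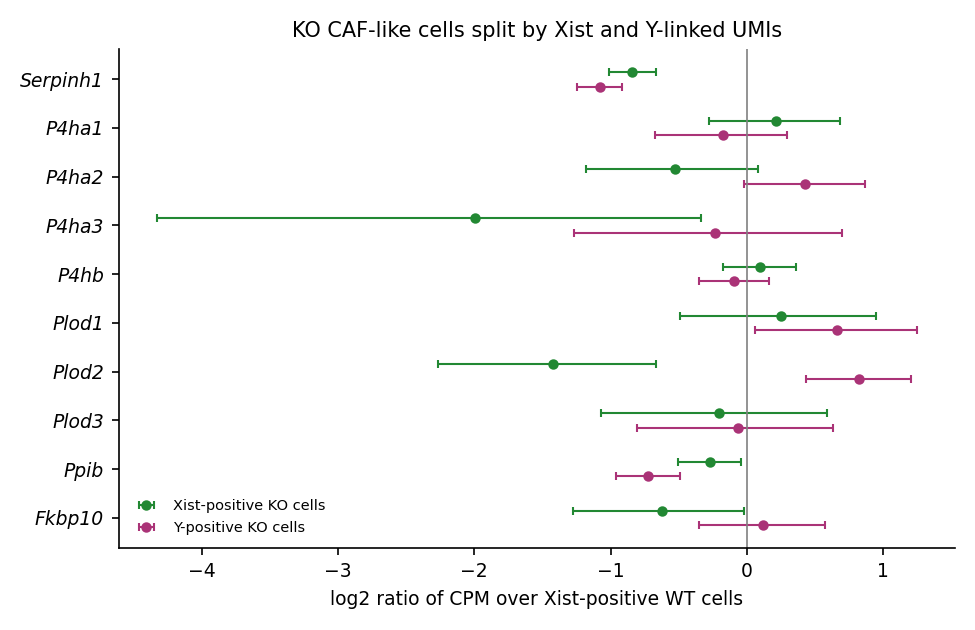
Log2 ratio (x axis) of each gene (y axis) in 2 sets of KO CAF-like cells, Xist-positive (green, 56 cells) and Y-positive (purple, 46 cells), each over the 151 Xist-positive WT cells. Lines are 95% counting intervals. Serpinh1 and Ppib lie left of 0 in both sets, and Plod2 lies on opposite sides.

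The 2 sets of KO cells had similar summed levels of the hypoxia genes (5163 CPM in Xist-positive, 5688 in Y-positive cells; 3281 in Xist-positive WT cells) and of the collagen chains (39286 and 37235 CPM; WT 56745 CPM). Serpinh1 was at 1669 and 1413 CPM in these sets and P4hb at 806 and 708 CPM, next to 2987 and 755 CPM in Xist-positive WT cells. P4ha2 was at 140 CPM in Xist-positive and 271 in Y-positive cells (WT 202), and Fkbp10 at 140 and 235 (WT 216). For the Y-positive cells the log2 ratios to WT were 0.43 (−0.02 to 0.86) for P4ha2 and 0.12 (−0.35 to 0.57) for Fkbp10. Of the members whose levels in Xist-positive cells are not yet given, P4ha1 was at 229 CPM in WT and 265 in KO. Plod1 was at 105 and 125 (log2 0.25, −0.49 to 0.94) and Plod3 at 102 and 88.4. P4ha3 had 39 and 3 UMIs (log2 −1.99, −4.33 to −0.34), against −0.24 (−1.27 to 0.70) for the Y-positive cells. The sets differ in sex and in animal, and each library pools only 2 tumours, so these cannot be told apart.

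Genes outside the 10 members gave the setting. The summed collagen chains were at 56184 CPM in WT and 38538 in KO CAF-like cells, and of 17 chains with at least 20 UMIs 11 were at least 1.5-fold lower in KO (median log2 −0.71) and 0 higher. Of 26 other collagen pathway genes with at least 20 UMIs (of 30 listed), 5 were at least 1.5-fold lower and 2 higher, with a median log2 of −0.28. The lower ones included Mrc2, a collagen uptake receptor (221 to 141 CPM, log2 −0.65, −1.001 to −0.30), and Fkbp7, another endoplasmic reticulum isomerase (167 to 94.5 CPM, log2 −0.82, −1.24 to −0.40). Lox, the lysyl oxidase that starts cross-linking, was higher (855 to 1352 CPM, log2 0.66, 0.52 to 0.80). The procollagen calcium-binding chaperone gene Rcn3 was at 597 and 402 CPM (log2 −0.57, −0.78 to −0.36), while the galactosyltransferase gene Colgalt1 was at 219 and 191 CPM (log2 −0.19, −0.52 to 0.13). Of 12 general chaperones of the endoplasmic reticulum 4 were at least 1.5-fold lower and 0 higher (median log2 −0.45), and of 15 hypoxia genes with at least 20 UMIs 12 were higher and 1 lower (median log2 0.96). Among the Xist-positive cells 9 of 17 collagen chains (median log2 −0.67), 7 of 25 other pathway genes (−0.18) and 1 of 11 chaperones (−0.36) were at least 1.5-fold lower, with 0 higher in each list, and 6 of 13 hypoxia genes were higher with 0 lower (0.58). The shares over all genes were not computed in these cells. Mrc2 (log2 −0.83, −1.52 to −0.20), Fkbp7 (−0.80, −1.58 to −0.09) and Rcn3 (−0.66, −1.04 to −0.29) were lower there too. Lox was at 879 and 988 CPM in those cells (log2 0.17, −0.08 to 0.41) and Colgalt1 at 223 and 177 (−0.33, −0.92 to 0.22). The summed chaperone level was 5578 and 4190 CPM over all CAF-like cells and 5582 and 4737 CPM over Xist-positive ones. The part of these changes in the members' levels was not tested.

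In melanoma-like cells, which carried no Atf4 deletion, 1 of 9 members with at least 20 UMIs was at least 1.5-fold higher in the KO library (8.66% of 12247 genes) and 0 were lower (4.96%). Fkbp10 was the member past that mark, with 174 UMIs in WT (8.74 CPM) and 326 in KO (16.5 CPM), log2 0.91 (0.64 to 1.19). Intervals were above 0 for 3 members (24% of genes) and below 0 for 4 (20.9%), counts that reflect the depth of these sums, and the median log2 was −0.06 beside 0.02 for all genes. Serpinh1 was lower in this class too, at 473 CPM in WT and 343 in KO (log2 −0.46, −0.51 to −0.42). After thinning, 60.1% of WT and 48.6% of KO melanoma-like cells held a Serpinh1 UMI. 10 heat shock genes were picked after the values were seen, because Serpinh1 is a known target of heat shock factor 1. Of these, 9 were lower in KO melanoma-like cells (median log2 −0.45, beside 46.7% of genes below 0) and 9 in macrophage-like cells (−0.32, beside 50.8%). In KO CAF-like cells 5 were lower (−0.03, beside 53.6%). That median over 10 genes includes Hspa4l, whose 1 and 10 UMIs are under the minimum of 20 that the background genes passed. In CAF-like cells Hspa1a (−1.24, −1.72 to −0.77) and Hspa1b (−1.07, −1.78 to −0.39) were lower, whereas Hspb1 (1.53, 0.97 to 2.11) and Hsp90aa1 (0.21, 0.05 to 0.37) were higher. The part of these genes in the Serpinh1 level was not tested. P4hb was higher in KO melanoma-like cells (319 to 419 CPM, log2 0.40, 0.35 to 0.44) and Plod2 lower (113 to 83.3 CPM, log2 −0.44, −0.53 to −0.35). Ppib was at 497 and 447 CPM (log2 −0.15, −0.19 to −0.11), P4ha2 at 27.5 and 23.8 CPM (log2 −0.21, −0.39 to −0.03) and Plod1 at 60.1 and 67.6 CPM (log2 0.17, 0.06 to 0.28).

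In macrophage-like cells 8 members had at least 20 UMIs, of which 2 were at least 1.5-fold higher in KO (8.91% of 8938 genes) and 1 lower (9.25%). P4ha2 was the clearest, with 22 UMIs in WT (9.60 CPM) and 36 in KO (20.6 CPM), log2 1.10 (0.30 to 1.94), where free RNA would give 2.43 and 2.73 CPM. Plod2, the other higher member, was at the level of free RNA. Plod3 was lower (41.0 to 26.9 CPM, log2 −0.61, −1.15 to −0.09), and Ppib was at 523 and 396 CPM (log2 −0.40, −0.54 to −0.27). Among Xist-positive macrophage-like cells (632 WT, 76 KO) Ppib was at 528 and 404 CPM (log2 −0.39, −0.71 to −0.08), whereas P4ha2 rested on 17 and 4 UMIs (log2 0.89, −1.14 to 2.51) and Plod3 on 81 and 2. Monocyte-like cells held P4hb at 235 CPM in WT and 393 in KO (log2 0.74, 0.20 to 1.28), and Xist-positive ones at 249 and 368 CPM (33 and 10 UMIs; log2 0.56, −0.62 to 1.62).

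In endothelial-like cells Serpinh1 had 489 UMIs in 72 WT cells (1488 CPM) and 46 UMIs in 20 KO cells (559 CPM), log2 −1.41 (−1.88 to −0.97). The fibroblast markers summed to 304 CPM in the WT and 122 CPM in the KO endothelial-like cells, with 11 and 3 of 13 detected, and Col1a1 was at 350 CPM (115 UMIs) and 0 UMIs. Xist-positive endothelial-like cells numbered 56 in WT but 7 in KO, too few for a ratio. The WT cells thus held more fibroblast RNA. The marker sums were 3.37% of the level of CAF-like cells in WT and 1.42% in KO. The part of this RNA in the Serpinh1 level was not tested. Ppib (682 and 596 CPM, log2 −0.19, −0.67 to 0.26) and P4hb (417 and 401 CPM, log2 −0.06, −0.65 to 0.50) had intervals that include 0.

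Because prolyl and lysyl hydroxylases depend on oxygen, the members were next compared between cells with high and low summed UMIs of 16 hypoxia genes, none of them a member. Cells thinned to 2000 UMIs were ranked by this score within a class and library and split into 3 parts, of which the lowest and the highest are compared. P4ha1, P4ha2, Plod1 and Plod2 were higher in the hypoxia-high part in melanoma-like and CAF-like cells of both libraries, with every interval above 0. Serpinh1 was lower in all 4, again with every interval off 0. In WT melanoma-like cells 5 of 9 members with at least 20 UMIs were at least 1.5-fold higher, beside 10.1% of all genes, and in KO 3 of 9, beside 7.78%. In CAF-like cells the counts were 4 of 9 in WT (12.1% of genes) and 5 of 8 in KO (14.9%). At least 1.5-fold lower were 1 member each in WT (9.66% of genes) and KO melanoma-like cells (11.4%), 0 in WT CAF-like (16.8%) and 1 in KO CAF-like cells (24.6%). The last was Serpinh1, and in melanoma-like cells it was Fkbp10, with 14 and 7 UMIs in WT (log2 −1.10, −2.65 to 0.30) and 26 and 14 in KO (−0.77, −1.82 to 0.22), both intervals including 0.

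**Figure D5:**
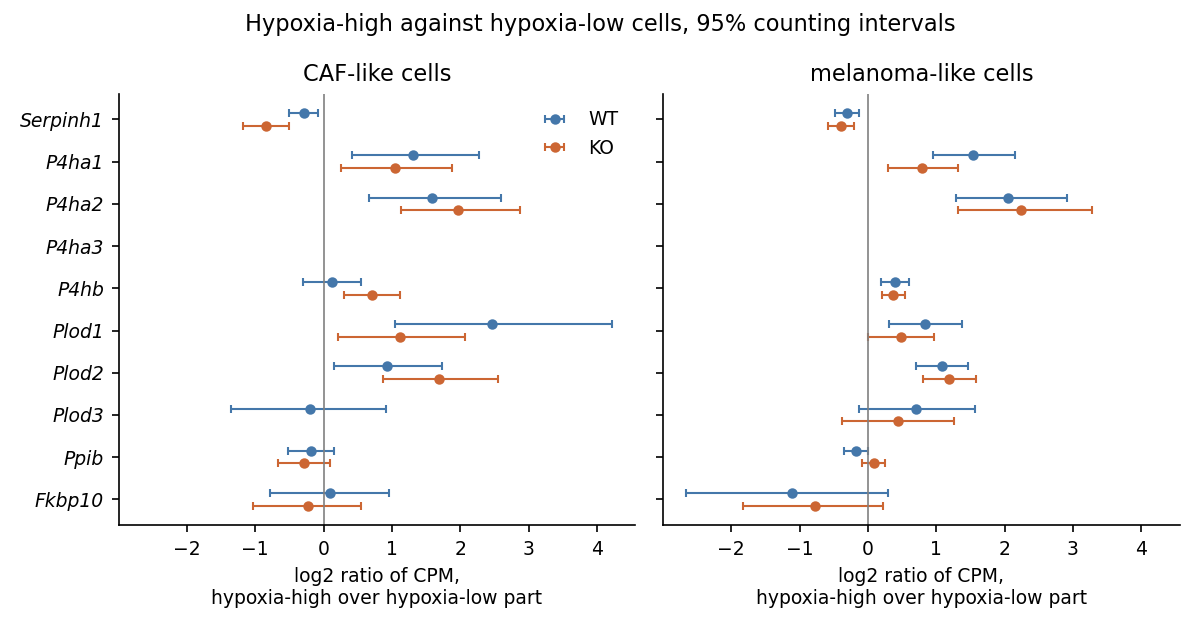
Log2 ratio of the level in the hypoxia-high part to that in the hypoxia-low part (x axis) for each gene (y axis) in CAF-like (left) and melanoma-like cells (right), for WT (blue) and KO (orange), with 95% counting intervals; genes under 20 UMIs are not drawn. P4ha1, P4ha2, Plod1 and Plod2 lie right of 0 in all 4 sets and Serpinh1 left of 0 in all 4.

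P4ha2 had the widest split of the members in 3 of the 4 sets, and Plod1 in WT CAF-like cells. This order in CAF-like cells changed without thinning, where P4ha2 and Plod1 were at 1.51 and 1.44 in WT and at 1.76 and 1.81 in KO. In WT melanoma-like cells P4ha2 was at 15.2 CPM in the low part (558 cells) and 63.3 CPM in the high part (600 cells), log2 2.06 (1.28 to 2.91). In KO it was at 9.01 and 42.6 CPM, log2 2.24 (1.32 to 3.28). In CAF-like cells P4ha2 was at 108 and 324 CPM in WT (65 and 54 cells; log2 1.59, 0.66 to 2.60) and at 107 and 418 CPM in KO (75 and 61 cells; log2 1.97, 1.14 to 2.88). All 4 low parts were thus below their high parts by at least 3-fold.

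P4ha1 was at 123 and 306 CPM in WT CAF-like cells (log2 1.31, 0.41 to 2.27), at 147 and 303 CPM in KO (1.05, 0.25 to 1.88), and its melanoma-like ratios were 1.54 (0.96 to 2.15) and 0.80 (0.29 to 1.31). Plod2 was at 185 and 352 CPM in WT CAF-like cells (log2 0.93, 0.16 to 1.73), at 120 and 385 CPM in KO (1.68, 0.87 to 2.55), and its melanoma-like ratios were 1.08 (0.70 to 1.47) and 1.19 (0.81 to 1.58). Plod1 went from 5 UMIs in the low part to 23 in the high part of WT CAF-like cells (log2 2.47, 1.04 to 4.22) and from 17 to 30 in KO (1.12, 0.21 to 2.07), with melanoma-like ratios of 0.83 (0.31 to 1.37) and 0.48 (0.01 to 0.97). The subunit gene P4hb was higher in the high part in both sets of melanoma-like cells (log2 0.40 and 0.37) and in KO CAF-like cells (587 to 959 CPM, 0.71, 0.30 to 1.12), while in WT CAF-like cells its interval included 0 (769 to 843 CPM, 0.13, −0.29 to 0.56).

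Serpinh1 was at 3323 and 2713 CPM in the low and high parts of WT CAF-like cells (log2 −0.29, −0.51 to −0.08) and at 1627 and 910 CPM in KO (−0.84, −1.18 to −0.51). Its melanoma-like ratios were −0.30 (−0.47 to −0.13) in WT and −0.39 (−0.59 to −0.20) in KO. Ppib had intervals that include 0 in 3 of the 4 sets, the exception being WT melanoma-like cells at −0.17 (−0.34 to −0.0003). In macrophage-like cells 1 of 6 members in WT (10.9% of genes) and 2 of 5 in KO (14.1%) were at least 1.5-fold higher in the high part, and 2 in WT (14.6%) and 0 in KO (16.8%) were lower. P4hb was higher in both (log2 0.76, 0.37 to 1.16 in WT; 0.61, 0.22 to 1.01 in KO), and P4ha1 in KO (1.19, 0.26 to 2.19). Plod1 had 44 UMIs in the low part and 19 in the high part of WT macrophage-like cells (log2 −1.13, −1.99 to −0.32). The other lower member there, Serpinh1, was at the level of free RNA in this class (17 and 9 UMIs, log2 −0.83, −2.18 to 0.41). Many CAF-like cells lay near a boundary of these parts, 100 of 159 in WT and 48 of 182 in KO within 1 UMI, and the median score was 2 and 9.5 UMIs in the WT parts but 4 and 21 in KO, so the parts of the libraries do not cover the same range.

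KO CAF-like cells had higher hypoxia scores, and the genotypes were therefore also compared within 3 ranges with boundaries shared by both libraries, a split made after seeing the data. Serpinh1 was lower in KO in the low range (3227 to 1552 CPM, log2 −1.06, −1.33 to −0.79), the middle range (2807 to 1681 CPM, −0.74, −1.04 to −0.45) and the high range (2426 to 1052 CPM, −1.21, −1.54 to −0.87). Ppib was lower by −0.32 (−0.67 to 0.02), −0.67 (−1.10 to −0.24) and −0.57 (−1.003 to −0.13). Plod2 was higher in KO in none of the ranges, at 182 and 156 CPM in the low, 318 and 138 in the middle and 370 and 368 in the high range, while 27 WT and 87 KO cells fell in the high range. P4ha2 in the high range was at 556 CPM in WT and 339 in KO (log2 −0.71, −1.37 to −0.03).

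The members were last set against the collagen output of the cells, as the summed UMIs of Col1a1, Col1a2 and Col3a1 in thinned CAF-like cells. Intervals lay above 0 for Fkbp10 and Serpinh1 in WT, and for Serpinh1 and Plod1 in KO. In WT, 1 of 9 members was at least 1.5-fold higher in the collagen-high part (16% of genes) and in KO 4 of 8 (18.3%). Fkbp10 was at 94.3 CPM in the low and 283 CPM in the high part in WT (log2 1.58, 0.51 to 2.78) and at 148 and 238 CPM in KO (0.69, −0.20 to 1.62). Serpinh1 was at 2802 and 3425 CPM in WT (log2 0.29, 0.06 to 0.52) and at 893 and 1627 CPM in KO (0.86, 0.52 to 1.21). The collagen-high KO cells, with a median of 97 UMIs of these collagens, held less Serpinh1 than the collagen-low WT cells, with a median of 56. Plod1 went from 107 to 238 CPM in KO (log2 1.16, 0.18 to 2.22), whereas in WT its 11 and 13 UMIs gave 0.24 (−1.03 to 1.54). P4hb and Ppib had intervals that include 0 in both libraries. With all UMIs of the same cells, not thinned, intervals also lay above 0 for P4ha2 (0.66, 0.10 to 1.23) and Plod2 (0.58, 0.0040 to 1.17) in WT. In KO they did so for P4ha2 (0.74, 0.18 to 1.30), P4hb (0.39, 0.09 to 0.68) and Fkbp10 (0.68, 0.07 to 1.29). Fkbp10 in WT was 0.74 (0.13 to 1.36) without thinning.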

How the data were processed

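10 genes were read from 2 droplet single-cell libraries of small B16F10 tumours. The authors deposited raw UMI counts per gene and barcode, unnormalised, made with Cell Ranger 3.1.0 per the file headers on the GRCm38 build. The kit version differs between the labels (V3) and the methods (V2). The limits on cells are the study's, and its Seurat clusters were not used.

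The members and gene lists were chosen with earlier results of these data known. The text names all members, other collagen pathway genes only with at least 200 UMIs in CAF-like cells, and the 3 genes most like a member by Pearson's r of log2(CPM + 10) over class sums. For each class the number of distinct markers with a UMI and their UMIs per 10000 had to pass a minimum (4 and 20 for fibroblasts, 3 and 10 for mural cells, 5 and 40 for melanoma). These minima were set on marker distributions alone. Cells passing fibroblast or mural gates were called CAF-like, cells of 2 lineages (58 WT, 56 KO) were left out, and 626 WT and 639 KO cells passed no gate. No doublet caller was applied in the main setting.

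For every class of a library UMIs were added up and given per 1000000 (CPM). Ratios carry exact conditional binomial intervals (scipy 1.17.1), a count of 0 being set to 3, and need 20 UMIs over the sums compared. Levels carry Poisson and shares Clopper-Pearson intervals. For shares and scores each cell was thinned to 2000 UMIs, which left out 24 WT and 26 KO CAF-like cells. Free RNA was estimated from melanoma markers in host classes, 5.23% (WT) and 6.16% (KO) of the library's level in CAF-like cells. Calls are a 1.5-fold difference. The ratio and its interval were tested on simulated data. Alternatives used scanpy 1.11.5 (Scrublet) and TMM factors from edgeR 4.0.16.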

Additional observations from a re-analysis of the deposited data

Results flagged for a closer look

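Results were picked out where a member's intervals lay on opposite sides of 0 in different cell classes under the same contrast. The differences between the classes were not tested. Plod2 was higher in KO than in WT in CAF-like cells (log2 0.30, 0.0012 to 0.61) and lower in melanoma-like cells (−0.44). The CAF-like interval included 0 under several other settings, and among Xist-positive CAF-like cells Plod2 was lower as well. P4ha2 was higher in KO macrophage-like cells (log2 1.10, from 22 and 36 UMIs) and lower in KO melanoma-like cells (−0.21). Plod1 in the WT library was higher in hypoxia-high than hypoxia-low CAF-like (log2 2.47) and melanoma-like cells (0.83), and lower in hypoxia-high macrophage-like cells (−1.13). Without thinning these were 1.44 (0.62 to 2.32), 0.61 (0.41 to 0.82) and −0.60 (−1.15 to −0.06).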

How the results depend on the processing

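Serpinh1 and Ppib were lower and Plod1 higher in KO CAF-like cells under all 15 other settings, with log2 ratios of −1.16 to −0.84, −0.58 to −0.27 and 0.25 to 0.57. The settings that changed only the UMI minimum or lifted the upper limit on genes left these ratios as they were. The Plod1 interval included 0 in Xist-positive cells (−0.49 to 0.94) and with at most 1 melanoma marker per cell (−0.25 to 1.10). Plod2 kept its direction under 14, between 0.21 and 0.34. Its interval included 0, however, with a 15% mitochondrial limit (lower bound −0.0026), doublets removed (−0.0078), a looser gate (−0.02) and collagen genes in the gate (−0.0092). The same held with the fibroblast gate only (−0.0022) and with at most 1 melanoma marker per cell (−0.27). In Xist-positive cells Plod2 was −1.42. That setting also moved the members' median to −0.40 and the number changed at least 1.5-fold from 2 to 4 (Serpinh1, P4ha3, Plod2 and Fkbp10, all lower). The share and median over all genes were not computed for the 151 WT and 56 KO Xist-positive cells, so this number is not read as a result about the members. The number was 1 (Serpinh1) with a looser gate, with the mean over cells, with a minimum of 200 UMIs and with collagen genes in the gate. With at most 1 melanoma marker per cell it stayed 2, but Serpinh1 and Plod3 made it up. The Y-positive cells, the Xist-positive myeloid cells, the Xist-positive values of genes outside the members and the shared hypoxia ranges were chosen after seeing the data. In the 3 ranges Plod2 was −0.22, −1.20 and −0.01. Plod1 was 1.97 (0.59 to 3.51, from 7 and 15 UMIs) in the low range and −0.58 (−1.40 to 0.29) in the high range. Its 7 and 4 UMIs in the middle range were too few for a ratio. The cause was not tested. Without thinning, the number of members at least 1.5-fold higher was 2 in place of 1 in hypoxia-high WT macrophage-like and in collagen-high WT CAF-like cells, and 4 in place of 3 in hypoxia-high KO melanoma-like cells. The median in melanoma-like cells lay between −0.11 and 0.02. Scrublet marked 2.95% of WT and 1.41% of KO cells. Free RNA could not be subtracted from melanoma-like cells, whose own markers measure it. No paired analysis was possible because there is a single library of either genotype. Depth limits P4ha3, Plod3 and Plod1 most, with 79, 146 and 204 UMIs in CAF-like cells over both libraries.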
